A study of Mus musculus with 76 samples.

Results

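Visceral fat and heart were compared by RNA sequencing in mice that had lost kidney mass. The comparison took every library that the labels give as partial nephrectomy (PNx), without transplanted cells, from visceral adipose tissue (VFAT, 5 libraries) and from heart (5 libraries), which is 10 of the 76 libraries of the study. The study asks about Na/K-ATPase signalling of adipose tissue in the heart disease that follows kidney failure, and its other libraries come from kidney, from sham surgery (Sham) and from mice that received transplanted cells. All 10 libraries came from male Fox Chase SCID mice (CB17/Icr-Prkdcscid/IcrlcoCrl) aged 12 weeks. The Prkdc scid allele, which leaves the mice without working T and B lymphocytes, was carried by the animals of both groups, so immune genes were read on that background. The labels do not say whether the libraries of a group came from separate animals or which VFAT and heart libraries shared one, so the p-values describe the spread among the libraries, which may be technical.

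Adipocytes store fatty acids as triglyceride in a lipid droplet that is coated by perilipin and CIDE proteins, and release them by lipolysis when catecholamines act on the cell. Cardiomyocytes take up those fatty acids, carry them into mitochondria on carnitine and oxidise them, which supplies most of the ATP that the sarcomere, the calcium pumps and the Na/K-ATPase use. Both tissues also hold endothelium, fibroblasts, macrophages and other cells, and in bulk RNA fewer cells of a type and less RNA per cell cannot be told apart.

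Levels are CPM (counts scaled to a common library size with TMM factors), and the libraries are given in the order 1 to 5. The library totals ran from 5666563 to 9072458 counts in VFAT and from 5495996 to 11355218 in Heart, so that 1 count stood for 0.0939 to 0.221 CPM. The defining markers matched the labels. The adipocyte markers Adipoq, Plin1, Cidec, Lep and Pparg measured 204 to 2949 CPM in the VFAT libraries and 0 to 18.1 CPM in the Heart libraries. The cardiomyocyte markers Myh6, Tnnt2, Tnni3, Actc1, Myl2 and Ryr2 measured 475 to 18370 CPM in Heart and 0 to 1.88 CPM in VFAT. Within each tissue some libraries stood apart. Heart 1 and 2 held neutrophil transcripts (11 genes summed to 2006 and 895 CPM, against 4.66 to 24.9 in Heart 3 to 5), and Heart 1 also had the highest sums of macrophage, complement and matrix genes and the lowest mitochondrial share of the hearts (8.72% of counts, against 15.2 to 19.8%). VFAT 1 and 2 held the keratin gene Krt8 at 93.7 and 136.7 CPM (1.01 to 13.4 in VFAT 3 to 5) and the endocytic receptor Lrp2 at 185 and 95.4 CPM (1.44 to 3.81). Values without these libraries are given where a result rests on them.

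Of 14805 genes tested, 4308 (29.1%) were higher in VFAT and 3609 (24.4%) were higher in Heart at an adjusted p under 0.05 (edgeR quasi-likelihood test, Benjamini-Hochberg), together 53.5%, and these shares are the background for every list that follows. The libraries of both tissues did not overlap for 3161 genes with VFAT above (21.4%) and 2864 genes with Heart above (19.3%). A difference of at least 4-fold was measured for 1146 called genes higher in VFAT (7.74%) and 1079 higher in Heart (7.29%). The median log2 fold change of all genes tested, VFAT over Heart, was 0.07. A positive log2 value below always means a higher level in VFAT. The plot of list members shows how the metabolic, contractile, matrix and immune lists were spread around that median.

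**Figure D1:**
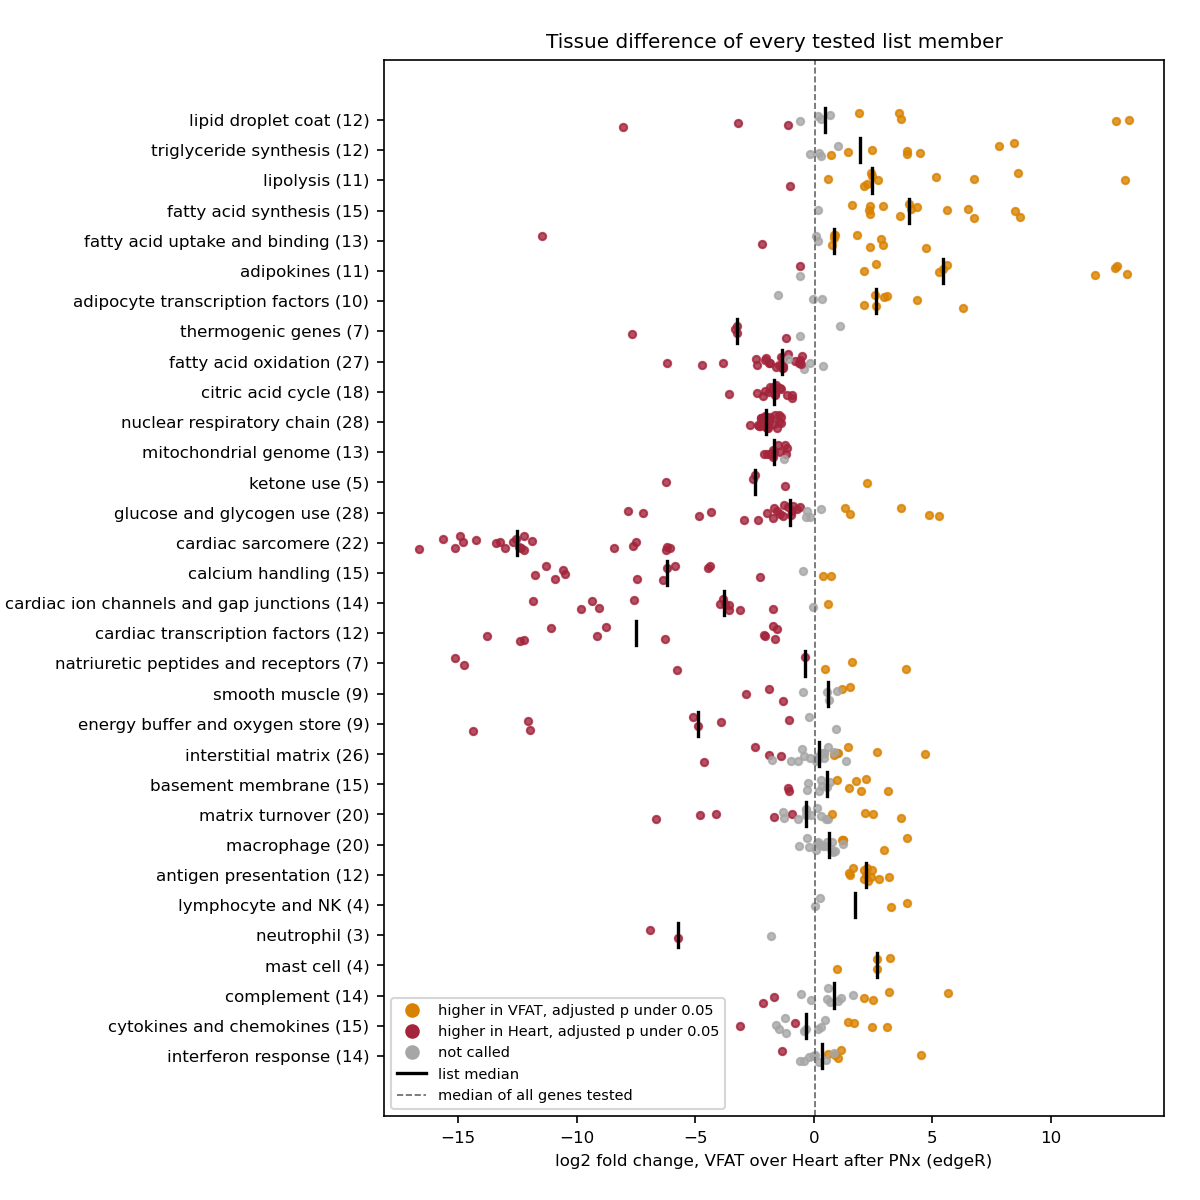
The log2 fold change, VFAT over Heart after PNx (horizontal axis), of each tested member of the gene lists (1 row per list, 1 point per gene, coloured by call, with a bar at the list median and a dashed line at the median of all genes, 0.07). The medians ran from 5.44 (adipokines) to −12.49 (cardiac sarcomere). Lipid storage lists lay to the right of 0 and oxidation and cardiac lists to the left, while the thermogenic list lay to the left (−3.22) and the smooth muscle list to the right (0.58). The fitted values of genes near 0 in 1 tissue depend on the prior count and move with single libraries.

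Genes of fatty acid synthesis, triglyceride synthesis and lipolysis were mostly higher in VFAT, while those of the lipid droplet coat were mixed. Of the 12 genes of the lipid droplet coat 5 were higher in VFAT and 3 in Heart (median 0.49), and the groups did not overlap for any of the 8. Of the 15 tested genes of fatty acid synthesis 14 were higher in VFAT (median 4.02), all 14 without overlap. Of the 12 genes of triglyceride synthesis 8 were higher in VFAT (median 1.95), and of the 11 genes of lipolysis 10 were higher in VFAT and 1 in Heart (median 2.47).

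Within the droplet coat the perilipins split between the tissues. Plin1 (ENSMUSG00000030546, chromosome 7, 79720218 to 79732903), the perilipin that guards the adipocyte droplet and releases its lipases on stimulation, measured 1688, 1515, 2277, 1977 and 2246 CPM in VFAT and 0, 0, 0.105, 0.394 and 0.411 CPM in Heart. Every VFAT library was above every heart by more than the full range of either group (log2 13.26 with SE 0.452, edgeR adjusted p = 1.22e-09). Cidec, which fuses small droplets into the single large one of a white adipocyte, measured 2146, 2545, 2701, 2448 and 2949 CPM in VFAT and 0.291, 0, 0.105, 0.591 and 0.823 CPM in Heart (log2 12.72 with SE 0.451, edgeR adjusted p = 1.46e-09). The perilipin Plin4 (3.61) and the droplet assembly gene Bscl2 (3.66), which encodes seipin, were also higher in VFAT, as was Plin2 (1.90), the coat protein found in most cells. Plin5, which couples droplets to mitochondria in oxidative muscle, went the other way, with 20.8, 27.7, 13.6, 11.9 and 10.3 CPM in VFAT and 114, 159.8, 189.9, 167 and 154 CPM in Heart (log2 −3.21 with SE 0.281, edgeR adjusted p = 2.03e-06). Fitm1, the muscle form of a droplet formation protein, was lower in VFAT (−8.04), as was Plin3 (−1.09), while its relative Fitm2 did not pass (0.18, adjusted p = 0.431).

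The promoters of Plin1 and of the hormone gene Lep are shown because both genes were near 0 in every heart and high in every VFAT library, and because the bases before their starts hold a C/EBP site, the letters TTGCNNAA, which the adipocyte factor family of Cebpa is known to bind. The sequences are from RefSeq (GRCm38.p6), 5′ to 3′ on the strand of the gene, begin 200 bases before RefSeq's start and leave out bases that GENCODE M21 gives as an exon, and the capitals mark the motif.
Plin1, chr7:79732904-79732976, minus strand: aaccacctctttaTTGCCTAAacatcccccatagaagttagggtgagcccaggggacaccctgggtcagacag
Lep, chr6:29060021-29060219, plus strand: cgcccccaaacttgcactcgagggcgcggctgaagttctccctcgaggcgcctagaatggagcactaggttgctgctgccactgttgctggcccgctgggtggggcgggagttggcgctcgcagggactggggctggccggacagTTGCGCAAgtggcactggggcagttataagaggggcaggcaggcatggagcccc
The motif begins 187 bases before the start of Plin1 and 55 bases before that of Lep, and it overlaps no other motif searched. Over windows of 300 bases (250 before to 50 after a start, both strands), 3 of the 10 adipokine genes in the table (30%) and 2 of the 11 droplet coat genes (18.2%) held it, against 12.2% of all 27025 genes, 13.2% of 785 genes at least 4-fold higher in VFAT and 11.9% of 742 at least 4-fold higher in Heart. Other lists of fat genes differed, with 3 of 9 genes of triglyceride synthesis and 2 of 8 adipocyte transcription factors. The site was in 0 of 9 genes of lipolysis and 0 of 12 of fatty acid synthesis. Among the energy buffer genes, mostly higher in Heart, 4 of 10 (40%) held it. Such a match describes the letters and shows no binding.

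The genes that build fatty acids were higher in VFAT at nearly every step. Scd1 (ENSMUSG00000037071, chromosome 19, 44394455 to 44407879), the desaturase that makes oleate, measured 11420, 5746, 18220, 18230 and 14400 CPM in VFAT and 34, 26.7, 25.5, 51 and 29.9 CPM in Heart (log2 8.67 with SE 0.435, edgeR adjusted p = 2.47e-08). Fasn (ENSMUSG00000025153, chromosome 11, 120805846 to 120824547), the synthase that builds palmitate, measured 5843, 4009, 6447, 11080 and 7132 CPM in VFAT and 17.2, 19.9, 18, 23.6 and 17.7 CPM in Heart (log2 8.48 with SE 0.337, edgeR adjusted p = 3.64e-09). Neither gene had overlapping libraries, and both varied about 3-fold among the VFAT libraries. The citrate carrier Slc25a1 (5.61), the citrate lyase Acly (4.02), the carboxylase Acaca (6.76) and the elongase Elovl6 (6.49), which supply or extend the chain, were higher in VFAT too, with Srebf1 (3.64) and Mlxipl (2.37), the factors that switch the pathway on with insulin and with glucose. Acacb was the exception, with 260.2 ± 30.9 CPM in VFAT and 232 ± 77.7 CPM in Heart (SD, n = 5 and 5; 0.16, adjusted p = 0.583). It encodes the carboxylase of the mitochondrial surface, whose product restrains entry of fatty acids into mitochondria.

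In triglyceride synthesis both routes to the glycerol backbone were higher in VFAT. Gpd1, which makes glycerol phosphate from glucose, was at 1553 ± 164 and 69.8 ± 7.92 CPM (4.48, adjusted p = 1.33e-09), and Pck1, which makes it from smaller precursors in fat, at 1517 ± 517 and 4.56 ± 7.16 CPM (8.45, adjusted p = 9.97e-06; 10.11 without Heart 4). The acyltransferases Agpat2 (3.92), Dgat1 (3.91) and Dgat2 (2.47) were higher in VFAT. Their relatives Agpat1 (0.23, adjusted p = 0.151) and Agpat3 (0.32, adjusted p = 0.13), and the first enzyme of the chain, Gpam (1.04, adjusted p = 0.0949), did not pass, and Gpam passed without VFAT 2 (1.30, adjusted p = 0.0155). For lipolysis, Lipe, the hormone-sensitive lipase, measured 1575, 1788, 2377, 1794 and 2192 CPM in VFAT and 65.3, 55.2, 65.7, 41 and 44.4 CPM in Heart (log2 5.16 with SE 0.216, edgeR adjusted p = 5.87e-09), and Pnpla2, which takes the first fatty acid off, was 5.34-fold higher in VFAT. The libraries of neither gene overlapped. Of the adrenergic receptors, Adrb3, the form of adipocytes, was at 684 ± 104 CPM in VFAT and at 0.0668 CPM in Heart, a ratio of 11450 (95% counting interval 3170 to 94570), while Adrb1, the main form of the heart, was lower in VFAT (−0.98) with overlapping libraries.

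Of the 11 adipokine genes 9 were higher in VFAT and 1 in Heart (median 5.44). Adipoq (ENSMUSG00000022878, chromosome 16, 23146536 to 23158028), the insulin-sensitising hormone of adipocytes, measured 1770, 2085, 2130, 2169 and 2285 CPM in VFAT and 0.146, 0, 0.105, 0.591 and 0.686 CPM in Heart (log2 12.68 with SE 0.436, edgeR adjusted p = 1.3e-09). Lep (ENSMUSG00000059201, chromosome 6, 29060220 to 29073877), the satiety hormone, measured 352, 298, 316, 315 and 358 CPM in VFAT and 0, 0, 0.105, 0 and 0 CPM in Heart, a ratio of 10870 (95% counting interval 1951 to 429500). Every VFAT library was above every heart for both hormones. Retn, or resistin, came to a ratio of 11470 (95% counting interval 3923 to 55600), and the complement protease Cfd, or adipsin, to 4409 ± 661 CPM against 1.23 ± 1.23 CPM (11.84, adjusted p = 5.9e-08). Agt, the angiotensin precursor (5.26; 4.63 without VFAT 1 and 2), and Rbp4, the retinol carrier (5.45; 8.41 without Heart 4, and 4.76 without Heart 1 and 2), were also higher in VFAT. Nampt, an enzyme of NAD synthesis that is also secreted, was lower in VFAT (−0.58, adjusted p = 0.0345), a call that ended without VFAT 3 or 5 or Heart 2, 3 or 5 (adjusted p = 0.0553 to 0.0803). Apln did not pass (−0.58, adjusted p = 0.11) but passed without Heart 1 (−0.79, adjusted p = 0.0219). Among the adipocyte transcription factors 7 of 10 were higher in VFAT and none in Heart (median 2.61), with Pparg at 204, 233, 292, 219 and 292 CPM in VFAT and 18.1, 10.6, 12.3, 11.4 and 8.5 CPM in Heart (log2 4.34 with SE 0.224, edgeR adjusted p = 3.1e-08) and Cebpa at 6.30. Cebpb (−0.03, adjusted p = 0.95), Cebpd (−1.50, adjusted p = 0.053) and Klf15 (0.34, adjusted p = 0.219), which many tissues express, did not pass. Cebpd passed without Heart 3, 4 or 5 (adjusted p = 0.0226 to 0.0371) and was at −0.57 without Heart 1, and Cebpb turned to a higher level in VFAT without Heart 1 and 2 (0.73, adjusted p = 0.0252).

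The thermogenic list did not follow the storage lists. Of 7 tested genes none was higher in VFAT and 5 were higher in Heart (median −3.22). Ucp1, the uncoupler that defines brown fat, was too low to test, at 0.131 to 1.44 CPM in VFAT and 0 in every heart. The 5 higher in Heart were Ppargc1a (−3.24), the coactivator of mitochondrial genes, Prdm16, Kcnk3, and the muscle forms of cytochrome oxidase subunits, Cox7a1 and Cox8b, which the heart also uses.

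**Figure D2:**
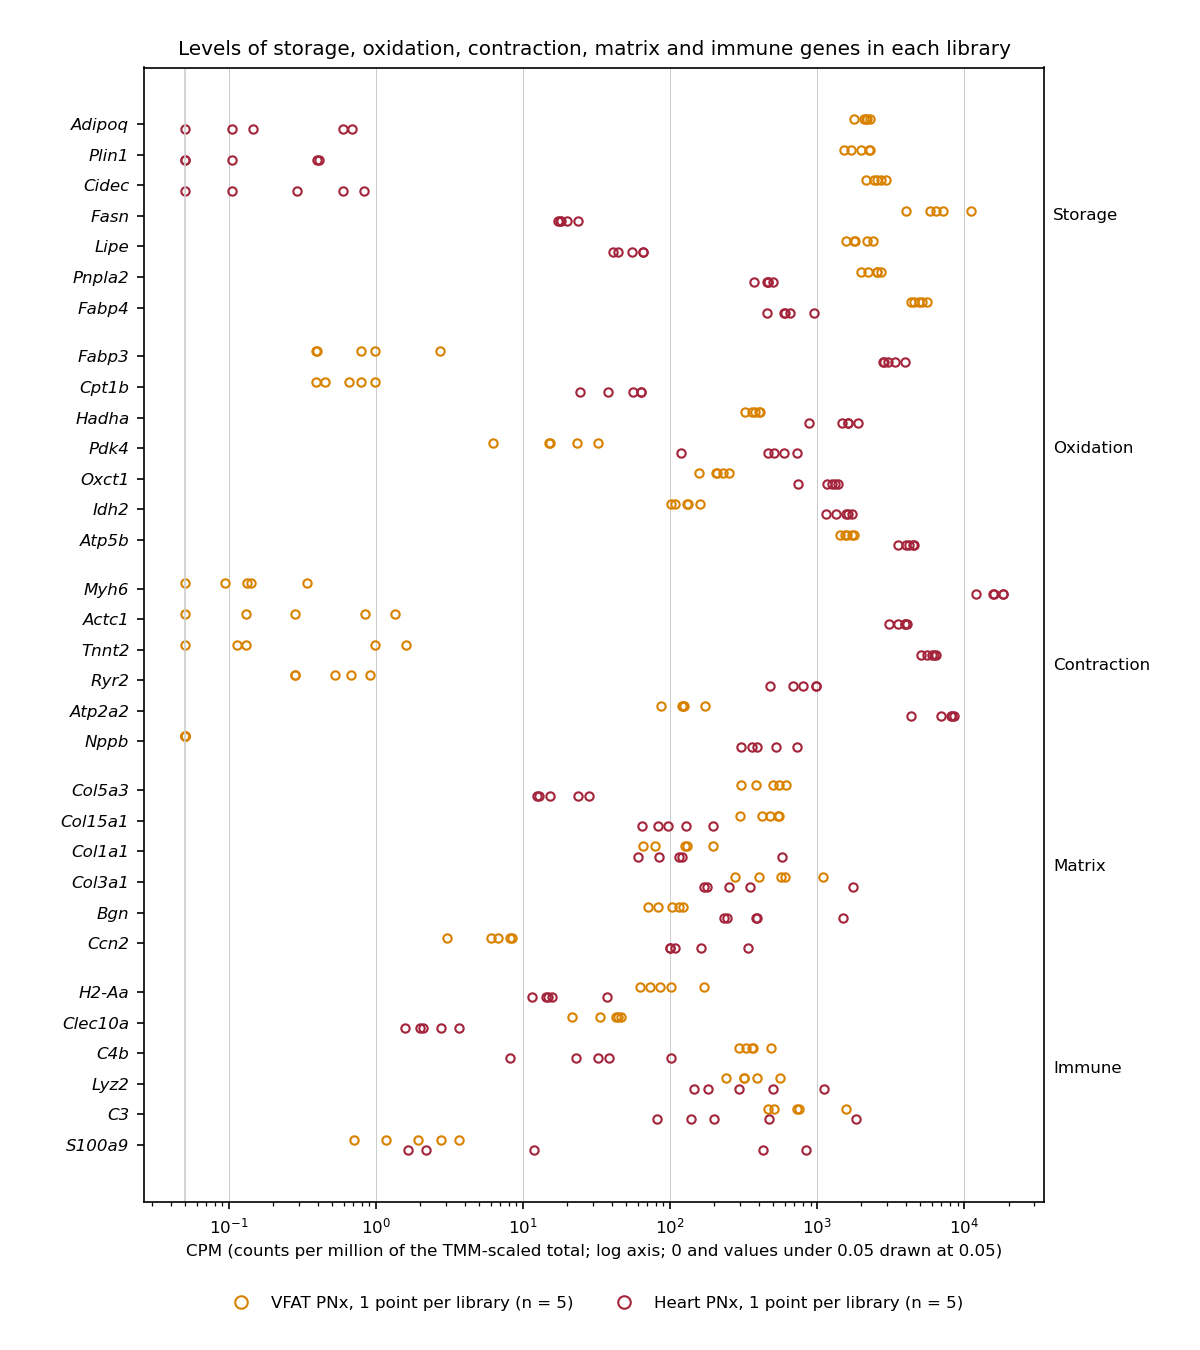
Level of storage, oxidation, contraction, matrix and immune genes in each of the 10 libraries (horizontal axis: CPM on a log scale, with 0 and values under 0.05 drawn at 0.05; 1 row per gene, 1 point per library, VFAT and Heart in 2 colours). Plin1 and Lipe separate upwards in VFAT, Fabp3, Hadha and Myh6 in Heart, and Col1a1 and Col3a1 overlap.

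Uptake genes were present in both tissues, with different carriers. Of 13 tested genes 9 were higher in VFAT and 2 in Heart (median 0.86). Lpl, the lipase that frees fatty acids from lipoproteins at the capillary wall, was at 4822 ± 914 CPM in VFAT and 2705 ± 472 CPM in Heart (0.83, adjusted p = 0.0031), and its capillary anchor Gpihbp1 did not pass (0.08, adjusted p = 0.883). Cd36, the fatty acid translocase, was at 2071 ± 613 and 1231 ± 234 CPM (0.75, adjusted p = 0.0214) with overlapping libraries, a call that ended without VFAT 5 or Heart 1 or 5 (adjusted p = 0.0523 to 0.0558). Inside the cell the binding proteins differed in opposite directions. Fabp4 (ENSMUSG00000062515, chromosome 3, 10204088 to 10208576), the adipocyte form, measured 4338, 5543, 5156, 4532 and 4903 CPM in VFAT and 948, 652, 596, 605 and 458 CPM in Heart (log2 2.91 with SE 0.207, edgeR adjusted p = 3.78e-07). Fabp3 (ENSMUSG00000028773, chromosome 4, 130308595 to 130315463), the heart form, measured 0.984, 2.72, 0.392, 0.394 and 0.788 CPM in VFAT and 2828, 3372, 3047, 3970 and 2805 CPM in Heart (log2 −11.47 with SE 0.525, edgeR adjusted p = 1.18e-08). Angptl4, a secreted inhibitor of Lpl, was higher in VFAT (4.74), and Vldlr, the receptor for triglyceride-rich particles, was higher in Heart (−2.16).

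The genes of oxidation were higher in Heart at nearly every step. Of the 27 genes of fatty acid oxidation 23 were higher in Heart and none in VFAT (median −1.33; 17 without overlap). All 18 genes of the citric acid cycle (median −1.68) and all 28 nuclear genes of the respiratory chain (median −2.0) were higher in Heart without overlap of the libraries. Of the 13 protein genes of the mitochondrial genome 12 were higher in Heart (median −1.68; 8 without overlap), and mt-Atp8 was the one that did not pass (−1.27, adjusted p = 0.0777). All 13 passed without Heart 1 (mt-Atp8 at −1.58, adjusted p = 0.0175), without Heart 1 and 2, with DESeq2 and with limma voom. Without VFAT 1 and 2 mt-Atp8 did not pass (−0.98, edgeR adjusted p = 0.145). Members of the nuclear respiratory list ranged from −2.70 (Cox5a, of cytochrome oxidase) to −1.36 (Atp5b, of ATP synthase). Heart 1 had the lowest mitochondrial share of the hearts, and without it 24 of the 27 oxidation genes and all 18 of the cycle were called.

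Entry into mitochondria differed by isoform. Cpt1b (ENSMUSG00000078937, chromosome 15, 89416405 to 89425863), the muscle form of the carnitine transferase that admits fatty acids, measured 0.984, 0.657, 0.392, 0.788 and 0.45 CPM in VFAT and 24.2, 63.6, 63.3, 37.8 and 56 CPM in Heart (log2 −6.21 with SE 0.361, edgeR adjusted p = 7.79e-08). Cpt1a, the form of most other tissues, was at 61.9 ± 10.1 CPM in VFAT and 47.5 ± 9.56 CPM in Heart and did not pass (0.38, adjusted p = 0.073) but passed without VFAT 2 or Heart 3 (adjusted p = 0.022 to 0.0236). The steps that follow the gate were present in both tissues. Hadha (ENSMUSG00000025745, chromosome 5, 30118304 to 30155162), the trifunctional protein of the beta-oxidation spiral, measured 324, 402, 406, 361 and 375 CPM in VFAT and 875, 1618, 1880, 1608 and 1480 CPM in Heart (log2 −2.0 with SE 0.198, edgeR adjusted p = 5.43e-06), with no overlap. Acadl (−1.88), Acadvl (−1.84) and Etfdh (−2.41), which start each turn and pass its electrons on, were lower in VFAT, and the short-chain enzymes Acads (−0.58) and Echs1 (−0.49) were lower by less. The controls differed more: Pdk4, the kinase that turns pyruvate oxidation down when fat is burned, was at 18.3 ± 9.84 and 482 ± 229 CPM (−4.72, adjusted p = 1.92e-05), and the receptor Esrrg, a driver of oxidative genes in the heart, was lower in VFAT (−3.83). Esrrg was at −5.41 without VFAT 1 and at −6.43 without VFAT 1 and 2. Ppara (−1.10, adjusted p = 0.0979) and Ppard (−0.18, adjusted p = 0.187), the fatty acid receptors, did not pass, but Ppara passed without Heart 4 (−1.32, adjusted p = 0.0475).

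In the citric acid cycle Cs (ENSMUSG00000005683, chromosome 10, 128337734 to 128362479), citrate synthase, measured 444, 427, 536, 583 and 539.5 CPM in VFAT and 930.3, 1464, 1494, 1384 and 1369 CPM in Heart (log2 −1.39 with SE 0.167, edgeR adjusted p = 2.5e-05). Idh2, the NADP-linked isocitrate dehydrogenase, had the largest difference of the cycle (−3.56), and Suclg2, the GTP-forming ligase subunit, the smallest (−0.93). Of the mitochondrial genome, mt-Co1 (ENSMUSG00000064351, chromosome M, 5328 to 6872), a catalytic subunit of cytochrome oxidase, measured 14260, 10970, 17020, 16530 and 18040 CPM in VFAT and 29660, 56570, 51010, 69600 and 47780 CPM in Heart (log2 −1.73 with SE 0.249, edgeR adjusted p = 0.000109). Heart 1 was the lowest heart, above every VFAT library. The ketone genes were higher in Heart except for 1: Bdh1, which oxidises hydroxybutyrate, at −6.24, and Oxct1, the enzyme that makes ketone use possible, at −2.49, against Slc16a7, a monocarboxylate transporter, at 2.26.

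Glucose use was mixed. Of 28 genes 5 were higher in VFAT and 19 in Heart (median −1.02). Those of muscle glycolysis and glycogen were far higher in Heart, with Pygm at −7.84, Eno3 at −7.21 and Pfkm at −4.84. Pcx, pyruvate carboxylase, which makes oxaloacetate from pyruvate, was higher in VFAT, with 1217, 1188, 1728, 1945 and 1623 CPM there and 33.5, 43.7, 38.4, 41.7 and 40.5 CPM in Heart (log2 5.28 with SE 0.2, edgeR adjusted p = 2.61e-09), as were Pfkfb3 (4.85; 5.50 without Heart 1 and 2), which raises glycolytic flux, Pygl (3.68), Eno1 (1.52) and Pfkfb1 (1.31). Slc2a4, the insulin-responsive glucose transporter, was at 278 ± 55.3 CPM in VFAT and 513 ± 80.1 CPM in Heart (−0.88, adjusted p = 0.00105), and Slc2a1 did not pass (−0.17, adjusted p = 0.612).

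For 19 pairs of related genes the share of the first form was computed from the deposited FPKM values. These are per length and so comparable between genes. The first form was listed as the muscle or oxidative one, a label that the levels of Slc16a7 did not bear out. In 14 pairs the first form was the larger in every heart and the other form the larger in every VFAT library. In 17 pairs the share of the first form was higher in Heart without overlap. Fabp3 made up 0.0876% in VFAT (median, range 0.0414 to 0.267%) and 96.6% in Heart (94.2 to 97.3%) of the sum with Fabp4. Cpt1b made up 1.71% in VFAT (median, range 0.678 to 1.83%) and 56.2% in Heart (42.2 to 65.7%) of the sum with Cpt1a, so both forms were near each other in the hearts. For the ADP/ATP carriers Slc25a4 made up 38.5% in VFAT (median, range 35 to 40.4%) and 88.7% in Heart (87.9 to 90.0%) of the sum with Slc25a5. The carboxylase Acacb made up 26.6% in VFAT (median, range 18.9 to 33%) and 97.8% in Heart (93.7 to 98.2%) of the sum with Acaca, where Acaca passed the test and Acacb did not. In 1 pair the first form had the lower share in Heart without overlap, Slc16a7 against Slc16a1. There Slc16a1 was the larger form in every heart, and Slc16a7 made up 1.35% of the sum (median, range 0.962 to 1.62%). The share of Slc2a4 against Slc2a1 overlapped between the tissues, at 93.3% in VFAT (median, range 90.3 to 94.9%) and 96.3% in Heart (91.3 to 96.7%).

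**Figure D3:**
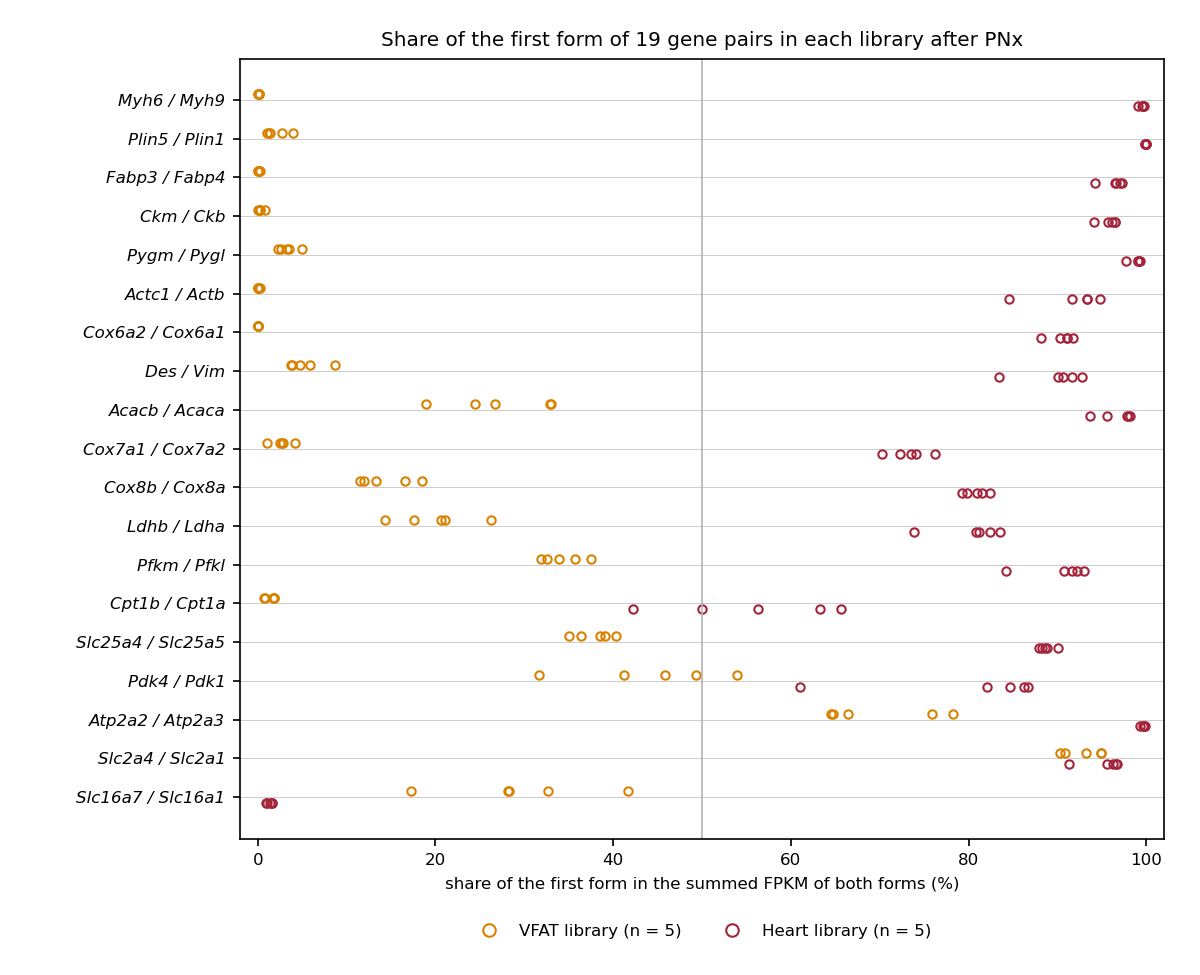
Share of the first form in the FPKM sum of each of 19 gene pairs (horizontal axis, percent, with 1 row per pair), 1 point per library, with a line at 50%. The first form was listed as the muscle or oxidative one, but in the pair of Slc16a7 the second form, Slc16a1, was the larger in every heart. Most pairs run from a low share in VFAT to a high share in Heart, Slc16a7 with Slc16a1 runs the other way, and Slc2a4 with Slc2a1 overlaps.

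The contractile genes were far lower in VFAT, most sarcomere genes at the level of a few counts. All 22 genes of the cardiac sarcomere were higher in Heart without overlap (median −12.49), and all 12 cardiac transcription factors (median −7.50, 3 of them at 0 in VFAT). Of 15 calcium handling genes 12 were higher in Heart and 2 in VFAT (median −6.20), and of 14 channel and gap junction genes 12 in Heart and 1 in VFAT (median −3.78). Among these lists the genes at 0 in every VFAT library have only a lower bound for their fold, set against a floor of 3 counts over the group.

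Myh6 (ENSMUSG00000040752, chromosome 14, 54941921 to 54966927), the fast myosin heavy chain of the mouse ventricle, measured 0.141, 0.0939, 0, 0.131 and 0.338 CPM in VFAT and 11980, 18370, 18360, 16000 and 15600 CPM in Heart (log2 −16.62 with SE 0.433, edgeR adjusted p = 5.27e-10). Actc1 (ENSMUSG00000068614, chromosome 2, 114047282 to 114053548), cardiac actin, measured 0.281, 0.845, 0.131, 0 and 1.35 CPM in VFAT and 3068, 3979, 3557, 3932 and 4101 CPM in Heart (log2 −12.66 with SE 0.588, edgeR adjusted p = 1.3e-08). The VFAT values are those of a few counts per library. Mybpc3, which tunes the myosin heads, came to a ratio of 43720 (95% counting interval 14960 to 212000), and Actn2, which anchors actin at the Z disc, to a ratio of 85610 (95% counting interval 15360 to 3382000). The members that other cells also use differed less, with Tpm1, a tropomyosin with forms in many tissues, at −6.18, Des, the muscle intermediate filament, at −6.07, and Nebl at −6.23 (−7.05 without VFAT 1 and 2). The skeletal actin gene Acta1, which the heart also expresses, was at 2792 ± 984 CPM in Heart and 10.9 ± 3.07 CPM in VFAT. Most genes of the skeletal muscle list (7 of 11) were too low to test. Of the 4 tested, 3 were higher in Heart, and Actn3 was higher in VFAT (4.28, edgeR adjusted p = 5.99e-05, and 5.11 without Heart 5).

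Promoters of 4 sarcomere genes are shown because all 22 members were higher in Heart and because these hold a site of a factor known for muscle genes: the CArG box (CC, 6 letters A or T, GG), bound by Srf, in Actc1 and Myl3, and the MEF2 site (CTA, 4 letters A or T, TAG) in Mybpc3 and Ttn, which encodes titin, the spring of the sarcomere. They are from RefSeq (GRCm38.p6), cut by the same rule as those of Plin1 and Lep, with the motif in capitals.
Actc1, chr2:114052888-114053075, minus strand: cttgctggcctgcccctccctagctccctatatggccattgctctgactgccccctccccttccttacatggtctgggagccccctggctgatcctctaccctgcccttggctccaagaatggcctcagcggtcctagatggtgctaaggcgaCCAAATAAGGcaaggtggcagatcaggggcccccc
Myl3, chr9:110763478-110763645, plus strand: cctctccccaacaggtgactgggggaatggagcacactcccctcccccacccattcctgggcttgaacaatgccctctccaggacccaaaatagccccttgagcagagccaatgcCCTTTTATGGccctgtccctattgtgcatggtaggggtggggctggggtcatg
Mybpc3, chr2:91117944-91118143, plus strand: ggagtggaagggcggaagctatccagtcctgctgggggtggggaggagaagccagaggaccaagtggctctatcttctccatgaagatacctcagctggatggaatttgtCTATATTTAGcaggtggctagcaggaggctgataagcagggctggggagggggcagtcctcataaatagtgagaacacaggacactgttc
Ttn, chr2:76982548-76982747, minus strand: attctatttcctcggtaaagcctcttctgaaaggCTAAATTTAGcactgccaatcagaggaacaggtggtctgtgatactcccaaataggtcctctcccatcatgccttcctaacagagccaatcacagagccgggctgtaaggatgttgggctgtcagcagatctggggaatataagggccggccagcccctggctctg
The motif begins 47 (Actc1), 85 (Myl3), 90 (Mybpc3) and 166 (Ttn) bases before the start, and none overlaps another motif searched. Among the 19 sarcomere genes with a promoter there, 5 (26.3%) held a CArG box and 3 (15.8%) a MEF2 site in the 300-base window, against 1.81% and 0.636% of all genes in the table. Among genes at least 4-fold higher in Heart the shares were 3.64% and 3.37%, and among those at least 4-fold higher in VFAT 1.53% and 0.255%. Srf (−2.08), Mef2a (−1.63) and Mef2c (−1.73) were themselves lower in VFAT than in Heart. Of the genes shown, Myl3, a myosin light chain, was at 0.12 ± 0.138 CPM in VFAT and 3785 ± 452 CPM in Heart, and Ttn at 0.238 ± 0.192 and 1223 ± 435 CPM.

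The factors that define the heart were absent or near absent in VFAT. Nkx2-5 (ENSMUSG00000015579, chromosome 17, 26838664 to 26845009), the homeobox factor of heart formation, measured 84.8, 82.3, 85, 85.5 and 99.7 CPM in Heart and 0 in every VFAT library, at least 1228-fold higher in Heart. Tbx20 and Tbx5, T-box factors of the same program, were also at 0 in VFAT (at least 1099-fold and at least 512-fold higher, and for Tbx5 at least 321-fold without Heart 5). Gata4 was at 0.344 ± 0.282 CPM in VFAT and 143 ± 29.8 CPM in Heart (−8.75, adjusted p = 2.93e-08), while Gata6, found in many tissues, differed by −2.05. Ankrd1, a stretch-responsive cofactor, was at 0.174 ± 0.138 CPM in VFAT and 2910 ± 584 CPM in Heart (−13.79, adjusted p = 5.27e-10).

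Of the genes that move calcium, Ryr2 (ENSMUSG00000021313, chromosome 13, 11553102 to 12106945), the release channel, measured 0.281, 0.282, 0.913, 0.525 and 0.675 CPM in VFAT and 475, 974, 976, 684 and 802 CPM in Heart (log2 −10.49 with SE 0.374, edgeR adjusted p = 1.57e-09). Atp2a2, the pump that returns calcium to the store, was at 125 ± 31.2 CPM in VFAT and 7209 ± 1731 CPM in Heart (−5.85, adjusted p = 1.89e-08), and its inhibitor Pln differed more (−11.29). Itpr1 (0.72, adjusted p = 0.039), the general release channel, was higher in VFAT with overlapping libraries, a call that ended without VFAT 1, 3 or 4 or Heart 1, 4 or 5 (adjusted p = 0.0665 to 0.105). Kcnj3, a potassium channel known from the atrium, was at 0 in VFAT (at least 859.5-fold higher in Heart, and at least 545-fold without Heart 5). Gja1, the main ventricular gap junction gene, measured 392, 138, 32.5, 48.5 and 42.2 CPM in VFAT and 214, 425, 481, 506 and 503 CPM in Heart (log2 −1.70 with SE 0.637, edgeR adjusted p = 0.0408). Its libraries overlapped through VFAT 1, which was also high in Lrp2. The value was −2.70 without VFAT 1, and without VFAT 1 and 2 it was −3.37, adjusted p = 1.17e-05. Its call ended without VFAT 2, 3, 4 or 5 or Heart 2, 3, 4 or 5 (adjusted p = 0.065 to 0.0837).

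The natriuretic system was divided between ligand and receptor. Nppa, the atrial peptide gene, measured 416, 440.2, 34.8, 184 and 1848 CPM in Heart and 0 in every VFAT library, at least 8214-fold higher in Heart and at least 3282-fold without Heart 5. Heart 5 was far above the other hearts. It had the highest sum of the atrial list (6693 CPM, against 72.7 to 1159 in the others), a sum that counts Nppa itself. What set the Nppa level was not tested. Nppb, the ventricular peptide gene, measured 728, 387, 305, 523 and 358 CPM in Heart and 0 in VFAT, at least 6264-fold higher in Heart. Corin, the protease that activates both peptides, was higher in Heart too (−5.78; −6.96 without VFAT 1, and −8.20 without VFAT 1 and 2). The receptors were higher in VFAT: Npr3, the clearance receptor, at 465, 204, 653, 428 and 534 CPM in VFAT and 21.1, 26.5, 20.6, 31.9 and 52.7 CPM in Heart (log2 3.90 with SE 0.364, edgeR adjusted p = 3.33e-06), the signalling receptor Npr1 at 1.61, and Npr2 at 0.49. Npr3 did not overlap between the tissues. After Sham Npr3 was higher in VFAT as well (3.76, edgeR adjusted p = 3.72e-05), while Npr1 (−0.36, adjusted p = 0.246) and Npr2 (−0.55, adjusted p = 0.266) did not pass.

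Energy buffering followed the sarcomere, with 7 of 9 tested genes higher in Heart and none in VFAT (median −4.90). Mb, the oxygen store, was at 1.11 ± 1.27 CPM in VFAT and 4626 ± 547 CPM in Heart (−11.97, adjusted p = 1.78e-07; −14.34 without VFAT 1 and 2), and Ckm, muscle creatine kinase, at 0.493 ± 0.466 and 2304 ± 223 CPM (−12.04, adjusted p = 8.3e-09). Ckb, the brain form, did not pass (0.94, adjusted p = 0.146), and VFAT 1 and 2, high in Krt8 and Lrp2, were its highest libraries. Without them its sign turned (−0.42, adjusted p = 0.061), and it was at 0.32 without VFAT 2 alone. Per length, Fabp3 (3898 ± 614 FPKM, SD, n = 5), Mb (3100 ± 348), Myh6 (2392 ± 405) and Actc1 (2306 ± 269.6) were measured in Heart, and Scd1 (2736 ± 1069 FPKM), Adipoq (1467 ± 139.6), Cidec (1337 ± 158) and Fabp4 (1057 ± 96.7) in VFAT. Of the 9 smooth muscle genes 2 were higher in VFAT (Mylk, 1.54, and Lmod1) and 3 in Heart. Acta2, smooth muscle actin, was among the latter (−2.88), while Myh11, the smooth muscle myosin, did not pass (0.65, adjusted p = 0.1) but passed without VFAT 4 or Heart 4 (adjusted p = 0.0369 to 0.05).

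Matrix genes divided more evenly, and the count depended on 1 heart. Of 26 genes of the interstitial matrix 5 were higher in VFAT and 4 in Heart (median 0.23). Without Heart 1 the counts were 12 and 4 (median 0.67), and without Heart 1 and 2 they were 10 and 4 (median 0.76). The main fibrillar collagens Col1a1 and Col3a1 did not pass with all libraries. Col1a1, the main chain of collagen I, measured 65.6, 78.2, 126, 195 and 131 CPM in VFAT and 575, 114, 83.5, 120.5 and 60.4 CPM in Heart (log2 −0.68 with SE 0.58, edgeR adjusted p = 0.352). Col3a1, its partner in soft tissue, measured 403, 276, 608, 1102 and 568 CPM in VFAT and 1758, 347, 177, 250.4 and 169 CPM in Heart (log2 0.13 with SE 0.652, edgeR adjusted p = 0.884). Heart 1 was the highest heart for both, and without it Col3a1 was higher in VFAT (1.28, adjusted p = 0.0133), as were Fn1 (2.20, adjusted p = 0.0031) and Sparc (1.31, adjusted p = 2.3e-05), while Col1a1 still did not pass (0.28, adjusted p = 0.474).

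Some matrix genes differed with and without those hearts. Col5a3, a minor fibrillar collagen, measured 384, 304, 552, 612 and 497 CPM in VFAT and 28, 12.4, 15.2, 23.4 and 12.9 CPM in Heart (log2 4.68 with SE 0.308, edgeR adjusted p = 2.01e-07). Bgn, a small proteoglycan, measured 70.1, 82.2, 102, 122 and 114 CPM in VFAT and 1499, 392, 231, 385 and 243 CPM in Heart (log2 −2.49 with SE 0.503, edgeR adjusted p = 0.00134), and the stretch-responsive Ccn2 was higher in Heart as well (−4.63). The libraries of these genes did not overlap. All 3 calls held without Heart 1 and 2, for Col5a3 (log2 4.72, adjusted p = 4.07e-06), Bgn (log2 −1.61, adjusted p = 0.000295) and Ccn2 (log2 −4.04, adjusted p = 3.43e-06). The collagen VI chains were higher in VFAT with overlapping libraries, with Col6a3 at 1.45.

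Of 15 basement membrane genes 6 were higher in VFAT and 2 in Heart (median 0.55). Col15a1 (2.01), Lama4 (1.5) and Nid1 (2.18), which surround adipocytes and capillaries, were higher in VFAT, and the muscle laminin chains Lama2 (−1.03) and Lamb2 (−1.08) were higher in Heart. The main chain Col4a1 did not pass (0.34, adjusted p = 0.431). Of 20 tested genes of matrix turnover 4 were higher in VFAT and 5 in Heart (median −0.32), and without Heart 1 the counts were 7 and 5. Timp4, an inhibitor of matrix proteases, was higher in VFAT (2.49, adjusted p = 0.00039; 3.08 without Heart 1 and 2), and Timp1 (−4.78, adjusted p = 0.00712) and the protease Mmp3 (−6.66, adjusted p = 0.000437) were higher in Heart. Timp1 was at −2.14 without Heart 1 and −1.44 without Heart 1 and 2, and it did not pass without VFAT 1 and 2 (−4.49, adjusted p = 0.0905). Mmp3 was at −5.0 without Heart 1, −4.74 without Heart 1 and 2 and −6.01 without VFAT 1 and 2. Mmp2, a gelatinase of fibroblasts, did not pass (−0.32, adjusted p = 0.547), and without Heart 1 and 2 its sign turned (0.46, adjusted p = 0.0445).

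Genes of antigen presentation were higher in VFAT. All 12 tested genes of the list were higher in VFAT without overlap (median 2.21). Cd74, the chain that guides class II molecules, measured 531, 933, 356, 396 and 408 CPM in VFAT and 256, 81.5, 78, 108 and 81.9 CPM in Heart (log2 2.11 with SE 0.396, edgeR adjusted p = 0.000782). H2-Aa (ENSMUSG00000036594, chromosome 17, 34282744 to 34287823), a class II chain, measured 100.5, 169, 62, 73.2 and 85.1 CPM in VFAT and 37, 14.3, 11.5, 14.8 and 15.6 CPM in Heart (log2 2.39 with SE 0.367, edgeR adjusted p = 0.00018). Heart 1 was the highest heart for both and lay below every VFAT library, and without it all 12 were again called. The class I genes H2-K1 (2.12), H2-D1 (2.30) and B2m (1.5), which most cells express, were higher by about as much, and reads of the class I genes can be split between near-identical copies.

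Macrophage genes gave a different count with and without Heart 1. With all libraries 5 of 20 tested were higher in VFAT (median 0.64), without Heart 1 it was 17 (median 1.25), and without Heart 1 and 2 it was 19 of 21, with none higher in Heart in these fits. Adgre1, which encodes F4/80, measured 10.3, 9.58, 14.2, 20.1 and 18.2 CPM in VFAT and 18.1, 9.71, 4.29, 3.74 and 5.21 CPM in Heart (log2 0.82 with SE 0.423, edgeR adjusted p = 0.125), and without Heart 1 it passed (1.31, adjusted p = 0.00533). Cd68, a lysosomal marker, measured 15.7, 28.1, 26.2, 32.6 and 38.7 CPM in VFAT and 27.4, 9.93, 6.17, 8.86 and 7.68 CPM in Heart (log2 1.24 with SE 0.397, edgeR adjusted p = 0.0203). Heart 1 reached into the VFAT range for both, and the call of Cd68 ended without VFAT 5 or Heart 2, 4 or 5 (adjusted p = 0.0504 to 0.0532), while it was at 1.84 without Heart 1 and 2. Mrc1, the mannose receptor, was higher in VFAT (1.19, adjusted p = 0.0259), a call that ended without VFAT 4 or 5 or Heart 3, 4 or 5 (adjusted p = 0.0504 to 0.0713), as was the lectin Clec10a without overlap (3.94, adjusted p = 4.06e-07), and Lyz2, or lysozyme (−0.29, adjusted p = 0.656; 0.35 without Heart 1), and C1qa (0.20, adjusted p = 0.759) did not pass. Without Heart 1 C1qa was higher in VFAT (0.93, adjusted p = 0.0127).

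Of 11 neutrophil genes 3 could be tested, and 2 were higher in Heart. S100a9, a calcium-binding protein of neutrophils, measured 0.703, 3.66, 1.17, 2.76 and 1.91 CPM in VFAT and 836, 427, 11.8, 2.17 and 1.65 CPM in Heart (log2 −6.92 with SE 1.7, edgeR adjusted p = 0.00463). Heart 1, 2 and 3 were above every VFAT library, and Heart 4 and 5 lay within the VFAT range. S100a8, its partner, measured 345, 188, 4.29, 1.57 and 0.96 CPM in Heart (−5.72, adjusted p = 0.00815). Without Heart 1 alone S100a9 was at −5.72 and S100a8 at −4.57, and without Heart 1 and 2 neither passed (−1.43, adjusted p = 0.114 for S100a9 and −0.29, adjusted p = 0.733 for S100a8).

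Of 14 complement genes 4 were higher in VFAT and 2 in Heart (median 0.86), and without Heart 1 the counts were 11 and 2 (median 1.78). C3, the central component, measured 465, 506, 729, 1570 and 755 CPM in VFAT and 1840, 472, 80.8, 199 and 139 CPM in Heart (log2 0.56 with SE 0.747, edgeR adjusted p = 0.559), and without Heart 1 it passed (1.82, adjusted p = 0.0117). C4b (3.18; 3.82 without Heart 1) and C2 (5.65) were higher in VFAT. Of 15 tested cytokine genes 4 were higher in VFAT, Ccl11 (2.47) and Ccl8 (1.70) among them, and 2 in Heart, Cxcl12 (−0.80) and Cxcl14 (−3.10), and without Heart 1 the counts were 6 and 2. Cxcl14 was at −2.06 without Heart 1 and −1.73 without Heart 1 and 2, and Ccl11 at 3.07 without Heart 1 and 2. The call of Ccl8 ended without VFAT 1, 2 or 4 or Heart 2, 3, 4 or 5 (adjusted p = 0.0515 to 0.102), and Ccl8 was at 2.84 without Heart 1 and 2. Ccl2, the monocyte chemokine, did not pass (−1.22, adjusted p = 0.124; 0.02 without Heart 1 and 2). Of 14 interferon response genes 5 were higher in VFAT and 1 in Heart (median 0.35), with Ifi27l2a at 4.53 and Isg15 not passing (−0.22, adjusted p = 0.678).

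Lymphocyte and NK genes were mostly too low to test (15 of 19). The same held for most genes of the study, as 14805 of 54232 were tested. That count therefore cannot be read as an effect of the scid allele, which was not tested. Ptprc, the pan-leukocyte marker CD45, did not pass (0.06, adjusted p = 0.947). It was at 0.75 without Heart 1, and without Heart 1 and 2 it was higher in VFAT (1.34, adjusted p = 0.0449). Ighm, the IgM heavy chain gene, measured 59.7, 77.3, 92.1, 116 and 79.7 CPM in VFAT and 6.56, 3.75, 4.6, 8.07 and 5.08 CPM in Heart (log2 3.92 with SE 0.243, edgeR adjusted p = 1.27e-07). The NK receptor Ncr1 was also higher in VFAT (3.23; 3.94 without Heart 3). The T cell gene Cd3e was among the untested, at 0, 0.0939, 0, 0 and 0 CPM in VFAT and 0.583, 0, 0, 0.197 and 0 CPM in Heart. All 4 tested mast cell genes were higher in VFAT (median 2.66), among them the proteases Mcpt4 and Tpsb2. The call of Kit (0.99, edgeR adjusted p = 0.0203) ended without VFAT 1 or Heart 1, 2 or 5 (adjusted p = 0.0522 to 0.0585). After Sham 1 of the 4 was called (median 0.54).

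**Figure D4:**
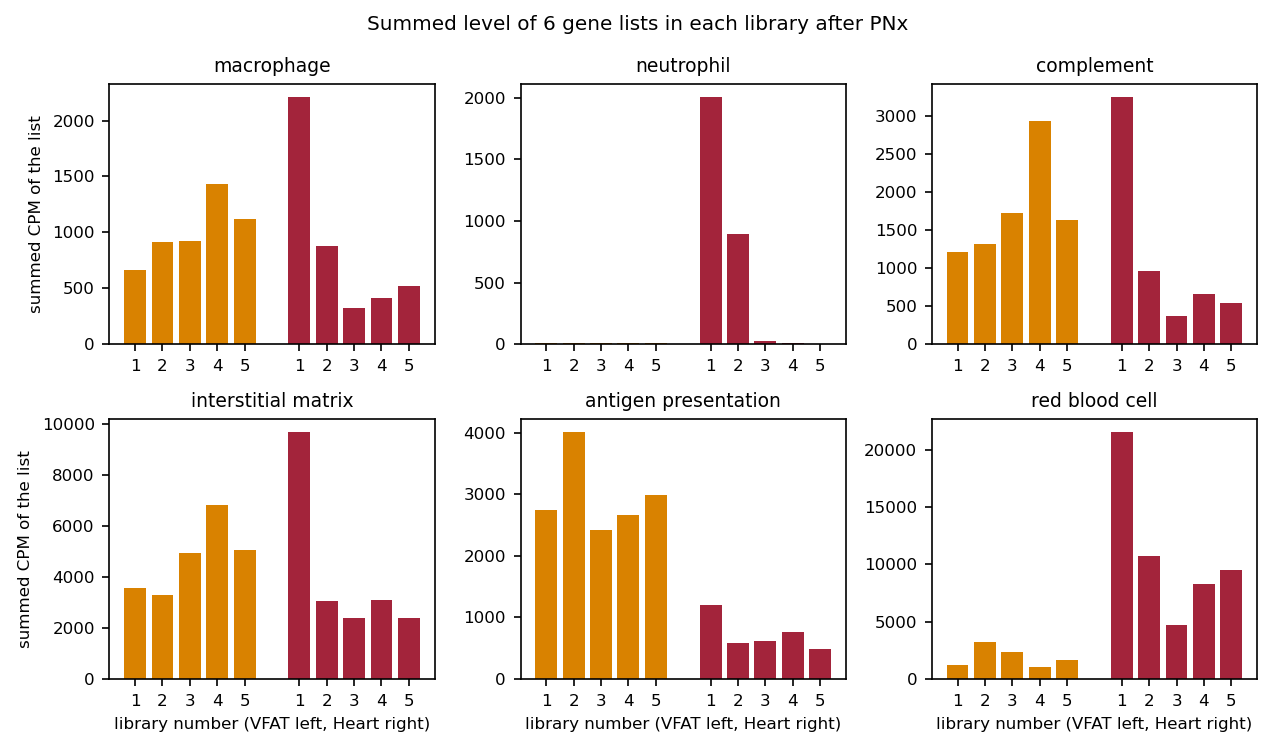
Summed CPM of marker lists in each of the 10 libraries (6 panels, 1 bar per library, VFAT 1 to 5 on the left and Heart 1 to 5 on the right; vertical axis: summed CPM from 0). Heart 1 holds the highest macrophage (2212 CPM) and complement (3254 CPM) sums and, with Heart 2, the neutrophil transcripts, while the antigen presentation sums of VFAT (2415 to 4017 CPM) stay above those of Heart (485.7 to 1195 CPM).

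Of 13 tested genes of the sodium pump, which the study targets, of its regulators and of the Src axis 7 were higher in VFAT and 5 in Heart (median 0.65). The beta subunits, which carry the pump to the membrane, differed in opposite directions. Atp1b1 was higher in Heart (−2.27, adjusted p = 0.0327), and VFAT 1, high in Krt8 and Lrp2, was the highest VFAT library. Its call ended without VFAT 2, 3 or 4 or Heart 1, 2, 3 or 4 (adjusted p = 0.0508 to 0.0691), and without both VFAT 1 and 2 the value was −4.74, adjusted p = 1.06e-05. Atp1b3 was higher in VFAT (0.65, adjusted p = 0.00454). Of the FXYD regulators Fxyd1, or phospholemman, the regulator of the cardiac pump, was higher in Heart (−2.11, adjusted p = 2.78e-05), as was Fxyd6 (−4.49), and Fxyd2 was higher in VFAT (1.89, adjusted p = 0.00615). Fxyd2 was at 1.22 without VFAT 2 and at 0.85 without VFAT 1 and 2. Src (ENSMUSG00000027646, chromosome 2, 157418444 to 157471862), the kinase that the pump is held to bind, measured 22.4, 18.9, 17, 15.4 and 11.7 CPM in VFAT and 8.74, 5.96, 6.07, 2.95 and 7.27 CPM in Heart (log2 1.45 with SE 0.267, edgeR adjusted p = 0.000703). The libraries of Src did not overlap. Cav1, the caveolar protein in which pump and Src are found together, was higher in VFAT (2.63, adjusted p = 7.31e-07), as was Csk, the kinase that restrains Src (0.95).

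Markers of other cells were compared as well, against 53.5% of all genes tested that were called in either direction. Of 12 endothelial genes 1 was higher in VFAT and 4 in Heart (median −0.46), and the summed list was at 636 to 1043 CPM in VFAT and 725 to 1353 CPM in Heart. Pecam1 did not pass (−0.50, adjusted p = 0.0945) but passed without Heart 5 (−0.64, adjusted p = 0.0382), Vwf was higher in Heart (−1.76) and Cldn5, a tight junction protein, was higher in VFAT (1.94). Of 8 tested mesothelial genes, which line the fat pad and the heart surface, 7 were higher in VFAT (median 3.73), all with overlapping libraries, and the list summed to 36.9 CPM in VFAT 5 and 38.5 CPM in Heart 5. Without Heart 1 it was 6 of 8, and without Heart 1 and 2 it was 2 of 9 (median 3.29). Without VFAT 1 and 2, Krt8 (2.46, edgeR adjusted p = 0.061), Krt18 (0.66, adjusted p = 0.511) and Upk3b (3.64, adjusted p = 0.0613) did not pass. Msln, Upk1b, Wt1, Krt19, Lrrn4 and Muc16 passed in that fit. The call of Upk3b also ended without VFAT 2, 3, 4 or 5 or Heart 1, 2, 3 or 4 (adjusted p = 0.057 to 0.208). The globin genes and Alas2 of red cells (5 of 5 tested) were higher in Heart, with summed levels of 1023 to 3264 CPM in VFAT and 4721 to 21570 CPM in Heart. The part of blood left in the tissue in any other difference was not tested. Of 5 liver genes 0 were called by edgeR, DESeq2 or limma voom, and edgeR had 0 at an unadjusted p under 0.05. They summed to 2095 CPM in VFAT 3 and 1640 CPM in Heart 4, against at most 71.9 CPM in the other libraries. Without Heart 4 Alb, or albumin, was higher in VFAT (5.52, adjusted p = 0.0193), against 0.48, adjusted p = 0.841 with all libraries.

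Outside the lists the 8 largest differences in each direction were taken among called genes of at least moderate level. Slc7a10, an amino acid transporter known as a surface marker of white adipocytes, measured 159, 208, 233, 140.0 and 263 CPM in VFAT and 0 in every heart, at least 2259-fold higher in VFAT. The others were Tmem45b, Tshr, the thyrotropin receptor, Lgals12, a galectin of adipocyte droplets, Nnat, Glb1l2, Apol6 and Arxes1, whose reads can be shared with a near-identical neighbour. In Heart they included Lmod2, which sets the length of thin filaments (at least 9111-fold higher, at 0 in every VFAT library), Xirp2 (at least 5697-fold), Lrrc10 (at least 2989-fold), Adprhl1, Cox6a2, Mylk4 and Eef1a2. Cox6a2, the muscle form of a cytochrome oxidase subunit, came to a ratio of 25130 (95% counting interval 6956 to 207500), and Tshr in the other direction to a ratio of 5231 (95% counting interval 939 to 206700).

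The same tissues after sham surgery shared no library with this comparison. In Sham, over 16161 genes in a fit of all 4 groups, 5104 (31.6%) were higher in VFAT and 3911 (24.2%) in Heart. Of 14802 genes tested in both, 7915 were called after PNx, 8206 after Sham, 5908 in the same direction in both (74.6% of the first and 72% of the second) and 69 in opposite directions. All 28 respiratory chain genes (median −2.0 after PNx and −2.38 after Sham), all 22 sarcomere genes (−12.49 and −8.55) and 14 of the 15 genes of fatty acid synthesis (4.02 and 4.78) were called the same way in both. Antigen presentation had 12 of 12 called after PNx and 7 after Sham (medians 2.21 and 1.14). The Sham libraries held more transcripts of other tissues: epididymal genes summed to 432 to 35700 CPM in VFAT Sham (0.672 to 131 in VFAT PNx, on the scale of 4 groups), skeletal muscle genes to up to 8155 CPM in VFAT Sham, and proximal tubule genes to up to 4698 CPM in Heart Sham. Values without these libraries stand with the interaction.

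Whether the tissue difference itself differed between the surgeries was tested as an interaction. It was larger after PNx for 88 genes (0.545% of 16161) and smaller for 175 (1.08%), where larger means more towards VFAT. Of the lists, Adipoq (4.98, SE 1.24, edgeR adjusted p = 0.0488), Plin1 (5.24), Cidec (5.23), Cfd (4.88) and Retn (6.45) were among the first group. Adipoq measured 2015 ± 197 CPM in VFAT PNx and 936 ± 750.3 CPM in VFAT Sham, and 0.296 ± 0.301 and 4.24 ± 5.79 CPM in the hearts. On the log2 scale more of the Adipoq difference lay between the hearts, at a few CPM or less, than between the VFAT groups. In Heart Sham the SD of Adipoq was above its mean. Plin1, Cidec, Cfd and Retn were near 0 in the PNx hearts too. The adipokine list summed to 917 to 7793 CPM in VFAT Sham and 7489 to 9857 CPM in VFAT PNx. In the hearts it summed to 146 to 281 CPM (Sham) and 191 to 253 CPM (PNx). The receptor Npr1 (1.97), the pacemaker channel Hcn2 (2.09), Smtn (1.35), Tap1 (1.25), Cldn5 (2.19) and Fxyd2 (5.65) were also larger, and Kcnj11 (−6.49) and Actg2 (−7.49) smaller. Kcnj11, the pore of ATP-sensitive potassium channels, measured 0.179 ± 0.254 CPM in VFAT PNx and 43.4, 0.15, 13.9, 19.4 and 8.39 CPM in VFAT Sham 1 to 5, and the epididymal list was lowest in VFAT Sham 2 too. The lowest p-values were those of Flt3l (3.09, SE 0.421, edgeR adjusted p = 0.00529), Asap3 (1.83), Asb18 (−10.89), Art4 (−5.95) and Ndrg4 (−4.08). Leaving out 1 library at a time gave 95 calls (without Heart Sham 2) to 1555 (without VFAT Sham 2), and 15 of the 20 such fits moved the count of 263 by over 1.5 times. None of the named calls held without Heart Sham 2 and 3, the libraries with kidney transcripts, where edgeR called 0 genes of 17243 (2471 at an unadjusted p under 0.05), DESeq2 664 and limma voom 2405. The differences themselves stayed within 1.5 times for 17 of the 18 named genes, such as Retn (6.43, adjusted p = 0.0878), Plin1 (5.60, adjusted p = 0.101), Asap3 (1.82, adjusted p = 0.0504) and Asb18 (−10.81, adjusted p = 0.073). Fxyd2, a pump regulator of the kidney, was the other (2.18, adjusted p = 0.146). A further fit left out the 6 Sham libraries with the most transcripts of other tissues (VFAT Sham 1, 3, 4 and 5 and Heart Sham 2 and 3). VFAT Sham was then left at 1 library, assumed to vary like the other groups. That library still held epididymal transcripts (432 CPM, against at most 131 CPM in VFAT PNx). There 3 of the 18 stayed within 1.5 times and 1, Kcnj11, turned sign (0.26).

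**Figure D5:**
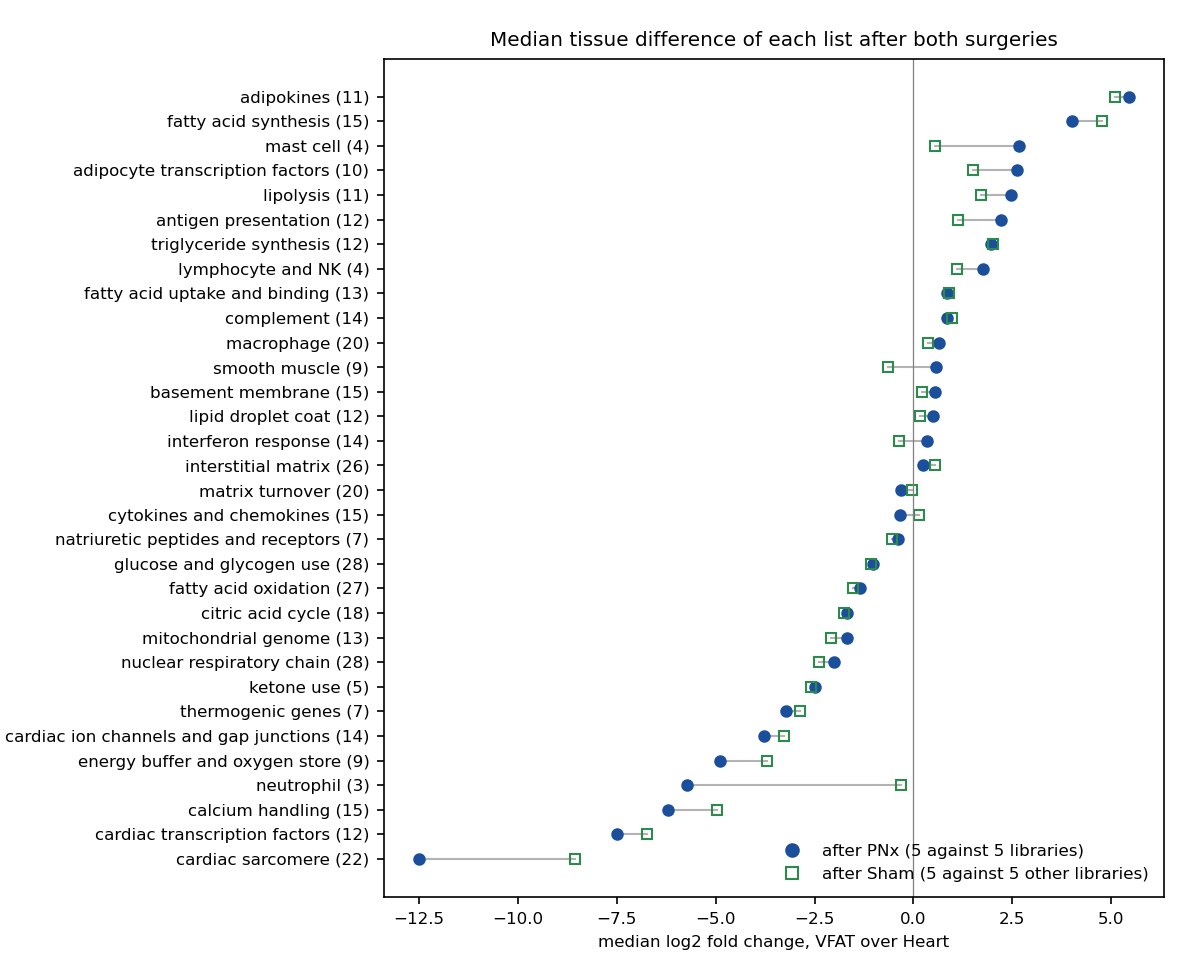
Median log2 fold change, VFAT over Heart, of each gene list after PNx (filled circles) and after Sham (open squares), 1 row per list, ordered by the PNx value (horizontal axis: median log2 fold change). The sarcomere list (−12.49 and −8.55) and the fatty acid synthesis list (4.02 and 4.78) lie on opposite sides of 0.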

How the data were processed

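Flash-frozen tissue was extracted with the Qiagen RNeasy Plus Universal kit, per the labels' protocols. The authors deposited raw read counts per gene, used here for every test, and FPKM values (per length and library), used here for levels between genes and shares of pairs. The submitters' processing notes name the build GRCm38, DESeq2 (1.20.0 and 1.20.1), the aligner HISAT2 2.1.0 and the trimmer Trimmomatic 0.38. For the counting tool, the strand setting and the annotation, nothing is stated in what was used here. Counts of genes that overlap, lie antisense or have near-identical copies are therefore uncertain. Symbols and coordinates were matched in GENCODE M21 for 54079 of 54232 gene IDs.

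Counts were scaled by TMM, filtered with filterByExpr (14805 genes kept) and tested with edgeR 4.0.16 in R 4.3.3 (quasi-likelihood, two-sided, Benjamini-Hochberg over all genes tested, threshold 0.05). Totals were 5666563 to 9072458 counts in VFAT and 5495996 to 11355218 in Heart. CPM values used the TMM-scaled totals. The VFAT and Heart PNx libraries were fitted alone. The Sham comparison and the interaction used 1 fit of 4 groups. Genes at 0 in a tissue got a bound from a floor of 3 counts over the group. Those with 1 to 3 counts got a ratio with an exact interval. Intervals and floors cover counting error only. DESeq2 1.42.0 and limma 3.58.1 (voom with quality weights) were alternatives, besides other scalings, filters, thresholds and left-out libraries. The code was tested on simulated data.

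The members, 43 gene lists and 19 pairs were chosen with earlier results of these data known. Genes were named by a rule: a fixed set, the 2 highest members of each list, up to 2 called against the direction of their list, the 8 largest differences each way outside the lists, the 5 lowest p-values and up to 10 list members of the interaction, and all pairs. Further list members were named after their values were seen, and some genes are not reported here. The labels do not say which VFAT and Heart libraries shared an animal, so no pairing entered the main test. A replicate block by library number was run as an alternative.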

Additional observations from a re-analysis of the deposited data

Results flagged for a closer look

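Within each tissue, a library was taken as far from the others by its gap, in log2 CPM, to the nearest of them. That gap had to be over 0.71 of the log2 range of the 5 libraries (Dixon's test). The CPM values printed below are not on that scale. Of 381 groups of 5 tested this way 32 met it (8.4%), where chance gives about 1 in 20, and 19 of the 32 were Heart 1. Heart 1 was the lowest library of its tissue, in CPM, for Adrb1 (8.02, nearest 17.4), Cs (930.3, nearest 1369), Echs1 (415, nearest 456), Etfdh (372, nearest 696), Flt3l (1.6, nearest 2.87), Gja1 (214, nearest 425), Oxct1 (740.0, nearest 1162), Pdk4 (118, nearest 461), Pfkm (601, nearest 909.9), Pnpla2 (369.6, nearest 458), Slc16a1 (165, nearest 228), Slc2a4 (376, nearest 528) and Tbx20 (40.1, nearest 77.9). Heart 1 was the highest library of its tissue, in CPM, for Bgn (1499, nearest 392), Ccl2 (10.3, nearest 1.77), Cd74 (256, nearest 108), Csk (43, nearest 27.4), H2-Aa (37, nearest 15.6) and Sparc (1428, nearest 516). VFAT 2 was the lowest library of its tissue, in CPM, for Cav1 (978, nearest 1553), Cd36 (1025, nearest 2111), Gpam (42.5, nearest 204), Lpl (3261, nearest 4837), Mef2a (19.2, nearest 39.9) and mt-Atp8 (62, nearest 433). Heart 5 was the highest library of its tissue, in CPM, for Nkx2-5 (99.7, nearest 85.5) and Tbx5 (85.5, nearest 25.6). VFAT 1 was the lowest library of its tissue, in CPM, for Pfkfb1 (48.8, nearest 61.6) and Rbp4 (332, nearest 529). Heart 2 was the highest library of its tissue, in CPM, for Ppard (39.7, nearest 35.6). Heart 4 was the highest library of its tissue, in CPM, for Slc25a5 (394, nearest 312). VFAT 4 was the highest library of its tissue, in CPM, for Timp1 (2.5, nearest 0.913). 

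The tissue difference differed between the surgeries, by the interaction in edgeR, for 18 named genes. On the log2 scale, PNx minus Sham, the differences were Retn (6.45), Hcn2 (2.09), Smtn (1.35), Adipoq (4.98), Npr1 (1.97), Cidec (5.23), Plin1 (5.24), Tap1 (1.25), Cldn5 (2.19), Fxyd2 (5.65), Actg2 (−7.49), Cfd (4.88), Kcnj11 (−6.49), Flt3l (3.09), Asap3 (1.83), Asb18 (−10.89), Art4 (−5.95) and Ndrg4 (−4.08). Without Heart Sham 2 and 3 their adjusted p-values were 0.0504 to 0.189, while 17 of the 18 differences stayed within 1.5 times and Fxyd2 was at 2.18.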

How the results depend on the processing

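The PNx counts of 4308 and 3609 genes stayed within 1.5 times under every alternative run: 3307 to 5574 higher in VFAT and 2876 to 4746 higher in Heart, and, with 1 library left out, 4021 to 4935 and 3368 to 4333. The share of calls higher in VFAT was 50.5 to 55.5%. The median of all genes was 0.003 with DESeq2 size factors and 0.228 with no filter. Of 225 called genes among the 268 named or chosen by rule, 196 were called in every alternative and 0 turned direction, and 24 of the others were called in at least 1. Of the called ones, 35 under 2 CPM in 1 tissue moved by over 1.5 times when libraries were left out. Without Heart 1 and 2, Mmp2 (0.46) and Cebpb (0.73) turned and passed. The Sham counts ranged from 4801 to 5512 and from 3683 to 4081 with 1 library left out, and were 2885 and 2317 without VFAT Sham 1, 3, 4 and 5 and Heart Sham 2 and 3, with fewer samples. The interaction count of 263 was 1097 with DESeq2, 2268 with limma voom, 122 with no filter, 0 without Heart Sham 2 and 3, 0 without the 6 Sham libraries, and 95 to 1555 with 1 library left out. The cause was not tested. The median of the glucose list moved to −1.10 with DESeq2 size factors. Between VFAT and Heart libraries, the same-number correlations of deviations were −0.24 to 0.022 over 13876 genes, and the others −0.323 to 0.275. These cannot tell whether same-numbered libraries came from 1 animal, as deviations in different tissues need not go together. A replicate block gave 3739 and 3213 calls in PNx and 3 for the interaction. Settings that leave out Heart 1 and 2, VFAT 1 and 2 or the 6 Sham libraries were chosen after seeing the data. Genes under the filter were not tested, and depth limits what can be said of them.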
